A study of Mus musculus with 24 samples.

Results

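The 10 genes described here are Vegfa, Kdr, Flt1, Tek, Cldn5, Cdh5, Esam, Pecam1, Slco1a4 and Ly6c1, a set of endothelial and angiogenesis genes. They were taken from the 55471 genes of the count table by matching their Ensembl identifiers to these symbols, and all 10 were found. Endothelial cells line the vessels of the brain and, joined by tight and adherens junctions, form the blood-brain barrier, across which nutrients and drugs pass by transporters. New vessels sprout when VEGF-A, released by cells outside the vessel wall, binds receptors on the endothelium, while angiopoietins acting on the receptor Tek steady the vessels already formed. In the hippocampus endothelial cells are a small share of all cells, so their transcripts make up a small part of tissue RNA.

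RNA from the whole hippocampus of 12 individual mice was sequenced in single-end reads of 50 bases, with 2 sequencing runs of each mouse added together as 1 replicate. The design crosses genotype with housing in 4 groups of 3 mice, and asks how loss of CBP, a transcriptional coactivator and lysine acetyltransferase encoded by Crebbp, bears on the response to an enriched environment. CBP-ifKO mice carry a floxed Crebbp gene and the Camk2a-creERT2 transgene, whose recombinase is active in excitatory neurons of the forebrain after tamoxifen, so the deletion is not directed at endothelial cells and leaves a transcript for a truncated CBP. Control mice were littermates without creERT2 that received tamoxifen too. Each mouse was a female on the C57BL/6J background, 3 to 6 months old, given tamoxifen (20 mg/mL in corn oil) by 5 intragastric administrations. The control SC and CBP-ifKO SC groups lived in a standard cage (SC), and the control EE and CBP-ifKO EE groups spent a month in an enriched environment (EE) with objects that were changed.

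Total counts per mouse ranged from 27056070 to 27833707 in control SC, from 28582210 to 36882312 in CBP-ifKO SC, from 26874015 to 27971488 in control EE and from 33143606 to 37448388 in CBP-ifKO EE. Every count in the 6 CBP-ifKO mice was an even number, with 0% odd among genes above 0, whereas between 54.0% and 55.1% were odd in the 6 control mice. The reason was not tested, and the CBP-ifKO totals may therefore overstate how many separate reads stand behind them. Levels are given as CPM, counts scaled to a common library size, with library sizes adjusted by the trimmed mean of M values. The targeted gene was examined first. Crebbp measured 73.9, 81.9 and 70.7 CPM in control SC, 50.6, 51.6 and 50.0 in CBP-ifKO SC, 72.3, 77.1 and 69.6 in control EE, and 44.5, 48.3 and 46.7 in CBP-ifKO EE. Each CBP-ifKO mouse lay below each control mouse, and more than a trace of transcript remained in all 6. In standard cages the log2 difference of Crebbp was −0.58 (standard error, SE, 0.06, adjusted p = 0.000542), by the quasi-likelihood F test of edgeR with Benjamini-Hochberg adjustment over all genes tested. Esr1, whose reads also capture the estrogen receptor part of the creERT2 fusion, measured between 3.47 and 5.82 CPM in control mice and between 67.0 and 81.7 CPM in CBP-ifKO mice. Both genes therefore separated the 6 labelled CBP-ifKO mice from the 6 labelled controls.

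A pair of libraries stood apart from the others in markers of neighbouring tissue. Summed over 10 choroid plexus genes, control EE mouse 1 reached 1294 CPM, against a range of 37.9 to 67.2 CPM over the other 11 mice, and Ttr, the most abundant of them, measured 1129 CPM in that mouse. CBP-ifKO EE mouse 1 had 15.5 CPM over 5 perivascular macrophage genes, where the other 11 mice ranged from 3.78 to 7.84 CPM. Its sum of 10 fibroblast and meninges genes, 200.1 CPM, was the highest of the 12 but close to the 186 CPM of control SC mouse 3, and that list varied widely in SC too. The reason was not tested, nor the part of these cells in the vessel genes. Some results on EE-housed mice are given with and without these libraries. For others, only the number of fits without 1 mouse that kept a call is given.

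All 10 genes were detected in all 12 mice, with counts per mouse from 286 for Cdh5 to 3134 for Slco1a4, and all 10 passed the filter on low counts in each comparison. Levels of different genes are compared per kilobase of the gene's exons. On this scale Cldn5, which seals the tight junction, was highest with a mean of 23.1 CPM per kilobase over the 12 mice, and stood above Vegfa in 12 of 12 mice. Vegfa followed at 14.7 CPM per kilobase. Slco1a4 at 10.2 and Ly6c1 at 9.30 CPM per kilobase came next. Slco1a4 was the higher in 11 of 12 mice, and the gap of 0.897 varied between mice with an SD of 1.18. Esam measured 5.79 CPM per kilobase and the receptor Flt1 4.68. Pecam1 at 3.37, Cdh5 at 3.19 and Tek at 3.16 CPM per kilobase lay close together. Pecam1 was above Cdh5 in 9 of 12 mice, and Cdh5 above Tek in 5 of 12. Kdr was lowest at 1.87 CPM per kilobase, below Tek in 12 of 12 mice. The lowest of the 10, Kdr, still lay above 37.9% of all genes tested on this scale, and Cldn5 lay above 88.8%. The length used counts all annotated exons of a gene together. It was 1677 bases for Ly6c1, whose longest transcript has 844, and 13504 for Flt1, whose longest has 6895. For Cldn5 both were 1416 bases. The order of genes with close values therefore depends on the length chosen, and an order by transcript length was not tested.

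Summed over the 9 members that mark endothelial cells, Vegfa left aside, the level was 276.6, 272 and 277 CPM in control SC, and 250.4, 235 and 239.7 CPM in CBP-ifKO SC. In EE the same sum was 273, 245 and 255.5 CPM in control and 263, 267 and 259.7 CPM in CBP-ifKO. The SC groups did not overlap, the 3 CBP-ifKO mice being lower, while in EE the CBP-ifKO mice lay inside the control range. Slco1a4 made the largest part of this sum by mean CPM, and each of its 9 genes was above 0 in all 12 mice. A fall without overlap in SC was not particular to vessel genes. Astrocyte sums were at most 5088 CPM in CBP-ifKO SC and at least 5103 CPM in control SC. These limits were 338 and 339 CPM for microglia, 865 and 880 CPM for interneuron and 42.6 and 51.8 CPM for choroid plexus genes. Excitatory neuron, oligodendrocyte lineage, vein, perivascular macrophage and blood sums overlapped. The fibroblast and meninges sum, to which Dcn gave the largest part, was also lower on average in SC, with 109.0, 167 and 186 CPM in control and 83.3, 78.0 and 164 CPM in CBP-ifKO mice, groups that overlapped. That list's median log2 difference in SC was −0.40, Igf2 was at 0 in CBP-ifKO SC mouse 1, and its part was not tested. In bulk tissue, fewer cells of a type and less RNA per cell cannot be told apart, whichever cells express the gene.

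**Figure D1:**
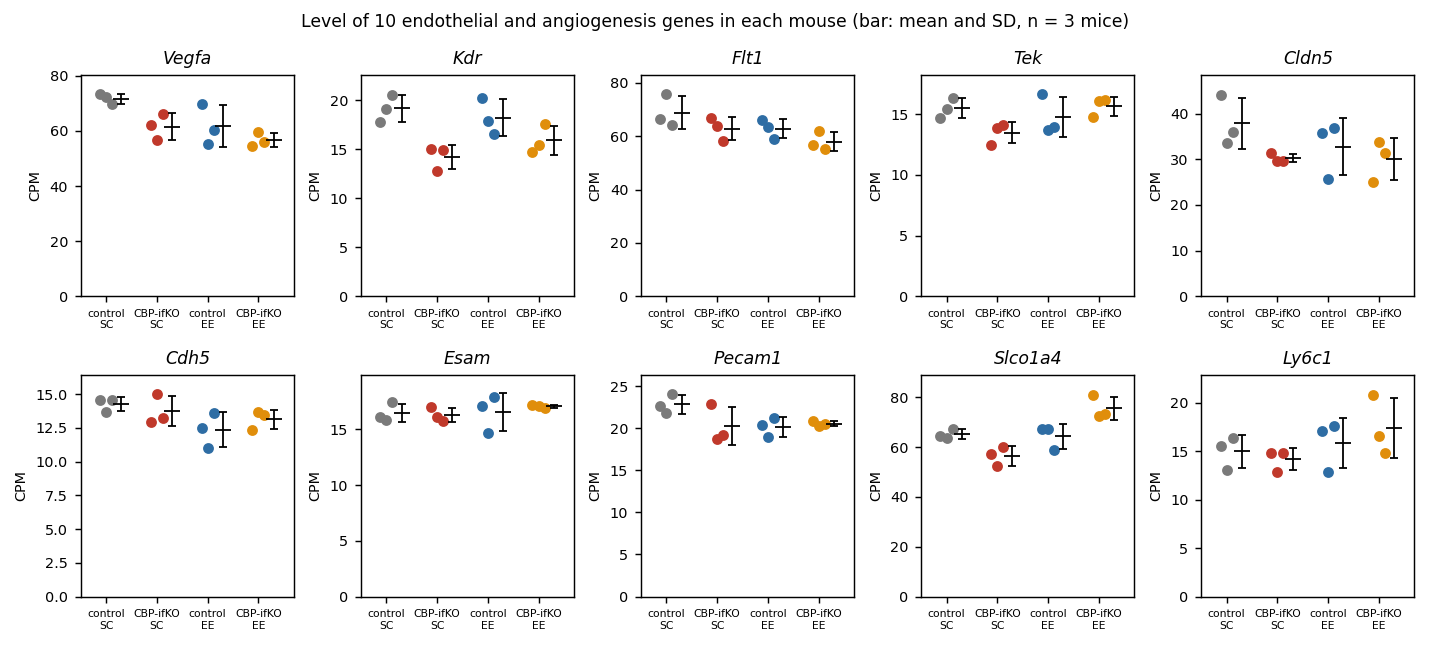
Level of each of the 10 genes in each of 12 mice, in CPM on a linear axis from 0, with points for mice and bars for the mean and SD of 3 mice in control SC, CBP-ifKO SC, control EE and CBP-ifKO EE. Kdr lies between 12.8 and 15.005 CPM in CBP-ifKO SC and between 17.8 and 20.5 CPM in control SC, and Slco1a4 is below control in SC and above it in EE in the CBP-ifKO mice.

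In standard cages the estimates for CBP-ifKO mice pointed downward. The log2 difference between CBP-ifKO and control was below 0 for 10 of 10 genes, with a median of −0.19 where the median of all 17532 genes tested was −0.00. Of these, 1 gene, Kdr, was called at an adjusted p under 0.05 by edgeR, next to 5.52% of all genes tested. The groups of 3 did not overlap for 5 genes, namely Vegfa, Kdr, Tek, Cldn5 and Slco1a4, each lower in CBP-ifKO, and for 25.9% of all genes in either direction. The same 5 genes had an unadjusted p under 0.05, beside 20.5% of all genes, and DESeq2 called 3 of them, Kdr, Cldn5 and Vegfa, and 1300 of all genes. An adjusted p that misses the threshold does not show that a gene's level was the same.

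In EE the genotype difference had no common direction, with 6 genes above 0 and 4 below, and a median of +0.04 beside +0.01 for all 17625 genes tested. edgeR called 0 of 10 members, where 4.57% of all genes did, 1 member and 19.6% of all genes had an unadjusted p under 0.05, and DESeq2 called 1 member, Slco1a4 in both cases, and 1296 genes. The groups did not overlap for Slco1a4, higher in CBP-ifKO, and for 25.3% of all genes. Averaged over housing, 6 mice against 6, edgeR called Kdr and Vegfa, both lower in CBP-ifKO, beside 16.9% of 18251 genes. The median over the 10 genes was then −0.07, next to 0.00 for all genes tested.

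The comparisons of EE with SC use the same mice as those of genotype, so their values stand side by side and are not independent. In control mice 8 of 10 log2 differences between EE and SC were below 0, with a median of −0.10 beside 0.00 over all 18251 genes tested. Here edgeR called 0 of the 10 and 0% of all genes, 2 members, Vegfa and Cdh5, and 4.21% of all genes had an unadjusted p under 0.05, and DESeq2 called 0 of the 10 and 15 genes. Pecam1 and Cdh5 were lower in each EE control than in each SC control, next to 9.11% of all genes whose groups did not overlap. In CBP-ifKO mice 6 of 10 differences were above 0, with a median of +0.05. There edgeR called 0 members and 0.011% of all genes, 3 members, Slco1a4, Tek and Ly6c1, and 8.59% of all genes had an unadjusted p under 0.05, and DESeq2 called 1 member, Slco1a4, and 54 genes. Tek and Slco1a4 were higher in each EE mouse than in each SC mouse of that genotype, beside 15.9% of all genes whose groups did not overlap.

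Whether housing acted differently in the 2 genotypes was tested directly by the interaction. Its estimate was above 0 for 10 of 10 genes, with a median of +0.20 on the log2 scale and −0.01 for all genes, so the genotype difference was higher in EE than in SC for each of them. None of the 10 estimates was separately established, as edgeR called 0 of the 10 and 0% of all 18251 genes, with 2 members, Slco1a4 and Tek, and 3.15% of all genes at an unadjusted p under 0.05, and DESeq2 called 0 members and 0 genes. Markers of other cells had interaction medians in either direction, and their part was not tested. Above 0 were +0.99 for 10 fibroblast and meninges genes, +1.43 for 5 perivascular macrophage genes and +0.26 for 14 mural genes. So were +0.12 for 8 oligodendrocyte lineage genes, +0.06 for 5 blood genes and +0.04 for 7 interneuron genes. Below 0 were −1.25 for 10 choroid plexus genes, −0.10 for 8 excitatory neuron genes, −0.03 for 9 astrocyte genes and −0.02 for 8 microglia genes. The choroid plexus median includes control EE mouse 1, at 1294 CPM against 52.7 and 38.3 CPM in the other control EE mice. The macrophage median includes CBP-ifKO EE mouse 1, at 15.5 CPM against 4.86 and 6.29 CPM. That mouse was also the highest of its group for fibroblast and meninges genes, at 200 CPM against 84.3 and 105.5 CPM. For mural genes it was at 406 CPM against 326 and 353 CPM. Medians without these libraries are not given, and the choroid plexus sign may turn on that control mouse. The 10 genes are measured in the same mice and are not 10 independent tests. Averaged over genotype, EE against SC gave a median of −0.02, with 0 members called by edgeR beside 0.164% of all genes, 3 members (Slco1a4 higher, Vegfa and Flt1 lower in EE) and 9.44% of all genes at an unadjusted p under 0.05, and 1 member, Slco1a4, and 158 genes called by DESeq2.

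**Figure D2:**
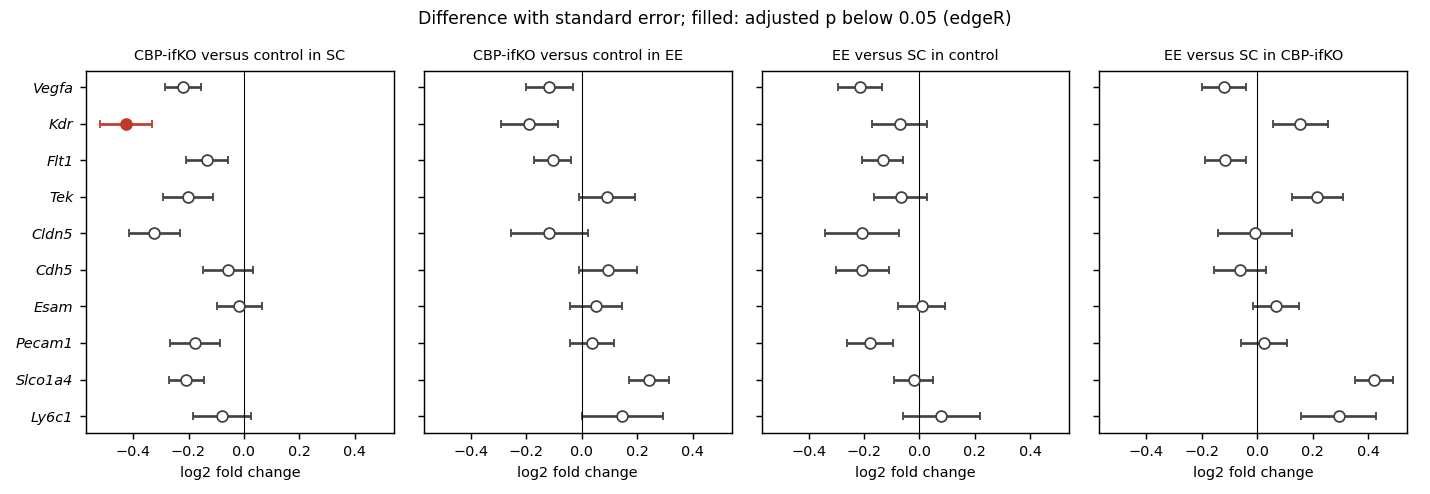
Log2 fold change of each gene (horizontal axis, with its standard error) for CBP-ifKO against control in SC and in EE and for EE against SC in control and in CBP-ifKO mice, with 3 mice in each group. In SC 10 of 10 genotype differences lie below 0 and the filled point, Kdr at −0.43, is the call by edgeR at an adjusted p under 0.05.

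Vegfa encodes the ligand VEGF-A, which in brain comes largely from astrocytes, neurons and choroid plexus epithelium and drives endothelial growth and permeability. It measured 73.3, 72.2 and 69.7 CPM in control SC and 62.0, 56.6 and 66.2 CPM in CBP-ifKO SC, so the 3 CBP-ifKO mice lay below the 3 controls. In EE the values were 69.9, 55.1 and 60.5 CPM in control and 54.6, 59.6 and 55.9 CPM in CBP-ifKO, and these groups overlapped. The control EE mouse with the highest Vegfa was mouse 1, the library rich in choroid plexus genes. The genotype log2 difference was −0.22 (SE 0.06, adjusted p = 0.0742) in SC and −0.12 (SE 0.08, adjusted p = 0.494) in EE. The EE value of Vegfa was −0.02 without control EE mouse 1, −0.20 without control EE mouse 2, and 0.00 without both libraries that stood apart, so it has no firm direction. Averaged over housing Vegfa fell by 0.17 on the log2 scale (SE 0.06, adjusted p = 0.0456), from 71.7 ± 1.84 to 61.6 ± 4.81 CPM in SC and from 61.8 ± 7.51 to 56.7 ± 2.59 CPM in EE (SD, n = 3). That call was narrow. Without control EE mouse 1 the difference was −0.12 (adjusted p = 0.121), without CBP-ifKO SC mouse 2 it was −0.14 (0.118), without CBP-ifKO EE mouse 1 −0.16 (0.0978), and without CBP-ifKO EE mouse 3 −0.17 (0.0910). It was also lost without CBP-ifKO SC mouse 1 (adjusted p = 0.0790), without control EE mouse 3 (0.0661), and without control SC mouse 1 (0.0886), 2 (0.0666) or 3 (0.0731). Between EE and SC the difference of Vegfa was −0.21 (SE 0.08, adjusted p = 0.999) in control mice, and −0.31 without control EE mouse 1 (adjusted p = 0.457). It was −0.12 (SE 0.08, adjusted p = 0.704) in CBP-ifKO mice.

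Kdr is the receptor through which VEGF-A signals most strongly to endothelial cells. It measured 17.8, 19.1 and 20.5 CPM in control SC and 15.005, 12.8 and 14.9 CPM in CBP-ifKO SC, from 370 to 566 counts per mouse. The 3 CBP-ifKO mice lay below the 3 controls and a gap separated the groups. The mean went from 19.1 ± 1.37 to 14.2 ± 1.24 CPM (SD, n = 3), and Kdr fell by 25.6% (log2 difference −0.43, SE 0.09, adjusted p = 0.0222). In EE, Kdr measured 20.2, 17.8 and 16.6 CPM in control and 14.7, 15.4 and 17.6 CPM in CBP-ifKO, groups that overlapped through control mouse 3 and CBP-ifKO mouse 3. The difference there was −0.19 (SE 0.10, adjusted p = 0.342), with −0.11 without control EE mouse 1 and −0.06 without both libraries that stood apart. The interaction of +0.23 (SE 0.14, adjusted p = 0.9998) did not separate the housing conditions. Averaged over housing Kdr fell by 0.31 on the log2 scale (SE 0.07, adjusted p = 0.0064), and this call held in 20 of 20 alternative settings, with an adjusted p of at most 0.0446. The call in SC alone depended on single mice. It was lost without control SC mouse 3 (log2 difference −0.37, adjusted p = 0.104), and without CBP-ifKO SC mouse 1 (−0.46, 0.0547), mouse 2 (−0.36, 0.0982) or mouse 3 (−0.46, 0.0546). EE against SC gave Kdr a log2 difference of −0.07 (SE 0.10) in control mice and +0.16 (SE 0.10) in CBP-ifKO mice.

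Flt1 encodes a receptor that binds VEGF-A tightly and, in a soluble form, keeps it from Kdr. It measured 66.5, 75.9 and 64.2 CPM in control SC, 66.7, 63.8 and 58.1 in CBP-ifKO SC, 66.0, 63.4 and 59.1 in control EE, and 56.7, 62.0 and 55.4 in CBP-ifKO EE. Each pair of groups compared overlapped, and the 2 lowest values belonged to CBP-ifKO EE mice. Its genotype difference was −0.13 (SE 0.08) in SC and −0.11 (SE 0.07) in EE, and averaged over housing −0.12 (SE 0.05, adjusted p = 0.128). Housing, averaged over genotype, gave Flt1 a difference of −0.12 (SE 0.05, adjusted p = 0.475). Tek, the receptor of the angiopoietins, measured 14.7, 15.5 and 16.4 CPM in control SC and 12.5, 13.9 and 14.1 CPM in CBP-ifKO SC, groups that did not overlap. In EE it measured 16.7, 13.7 and 13.97 CPM in control and 14.8, 16.1 and 16.2 CPM in CBP-ifKO, with control mouse 1 the highest of the 6. The genotype difference of Tek was −0.20 (SE 0.09, adjusted p = 0.228) in SC and +0.09 (SE 0.10, adjusted p = 0.669) in EE, and the interaction was +0.28 (SE 0.13, adjusted p = 0.9998). In CBP-ifKO mice EE exceeded SC by +0.22 (SE 0.09, adjusted p = 0.534), whereas in control mice the difference of Tek was −0.07 (SE 0.09).

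Cldn5 encodes claudin-5, the tight-junction protein that closes the cleft between brain endothelial cells to small molecules. It measured 44.0, 33.5 and 36.1 CPM in control SC and 31.3, 29.7 and 29.7 CPM in CBP-ifKO SC. The groups did not overlap, and control SC mouse 1 stood well above the other controls. The log2 difference was −0.32 (SE 0.09, adjusted p = 0.0659), with −0.20 (adjusted p = 0.204) without control SC mouse 1 and −0.41 (adjusted p = 0.0124) without control SC mouse 2, and with all 6 mice kept DESeq2 (adjusted p = 0.0222), the replicate block (0.0332) and no filter on low counts (0.00449) called it, so the call of Cldn5 depended on the method as well as on single mice. In EE, Cldn5 measured 35.8, 25.7 and 36.9 CPM in control and 25.0, 33.9 and 31.4 CPM in CBP-ifKO. These groups overlapped widely, and each held 1 mouse below the rest. The difference in EE was −0.12 (SE 0.14, adjusted p = 0.700), and no direction held, with 0.00 without CBP-ifKO EE mouse 1, −0.27 without control EE mouse 2 and +0.06 without both libraries that stood apart. Between EE and SC, Cldn5 differed by −0.21 (SE 0.13) in control and by −0.01 (SE 0.13) in CBP-ifKO mice.

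Cdh5, or VE-cadherin, holds endothelial cells together at adherens junctions. It measured 14.6, 13.7 and 14.6 CPM in control SC, 12.97, 15.02 and 13.2 in CBP-ifKO SC, 12.5, 11.04 and 13.6 in control EE and 12.3, 13.7 and 13.5 in CBP-ifKO EE. The 3 control EE mice lay just below the 3 control SC mice, and the genotypes overlapped in both housings. For Cdh5 the difference between EE and SC in control mice was −0.21 (SE 0.10, adjusted p = 0.999). Esam, an adhesion molecule of endothelial tight junctions, had group means of 16.5 ± 0.830, 16.3 ± 0.614, 16.6 ± 1.68 and 17.1 ± 0.131 CPM in control SC, CBP-ifKO SC, control EE and CBP-ifKO EE. Its genotype difference was −0.02 (SE 0.08) in SC and +0.05 (SE 0.09) in EE. Pecam1, or CD31, which joins neighbouring endothelial cells and guides leukocyte passage, measured 22.6, 21.8 and 24.1 CPM in control SC and 22.8, 18.7 and 19.2 CPM in CBP-ifKO SC. CBP-ifKO SC mouse 1 lay within the controls and the other 2 below them. In EE, Pecam1 measured 20.4, 18.9 and 21.3 CPM in control and 20.9, 20.2 and 20.6 CPM in CBP-ifKO. The genotype difference of Pecam1 was −0.18 (SE 0.09, adjusted p = 0.305) in SC and +0.04 (SE 0.08, adjusted p = 0.853) in EE.

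Slco1a4 encodes the organic anion transporter Oatp1a4, which carries bile acids, steroid conjugates and drugs across the brain endothelium. It measured 64.6, 63.7 and 67.4 CPM in control SC and 57.2, 52.3 and 59.9 CPM in CBP-ifKO SC, where the CBP-ifKO mice were the 3 lowest. In EE it measured 67.2, 67.1 and 58.6 CPM in control and 81.0, 72.4 and 73.4 CPM in CBP-ifKO, where the CBP-ifKO mice were the 3 highest. The genotype groups thus did not overlap in either housing, with the order turned round between SC and EE. The genotype log2 difference was −0.21 (SE 0.06, adjusted p = 0.0807) in SC and +0.24 (SE 0.07, adjusted p = 0.0848) in EE, neither past the threshold by edgeR, and DESeq2 gave adjusted p values of 0.0616 and 0.0471. With no filter on low counts edgeR gave adjusted p values of 0.0409 in SC and 0.0406 in EE. Their difference, the interaction, was +0.44 (SE 0.10), with the smallest unadjusted p of the 10 genes, 0.000397, and an adjusted p of 0.9998 over all genes by edgeR. In CBP-ifKO mice the mean of Slco1a4 was 56.4 ± 3.85 CPM in SC and 75.6 ± 4.66 CPM in EE (SD, n = 3). That difference was +0.42 on the log2 scale (SE 0.07), an unadjusted p of 1.8e-05 by edgeR that became 0.0933 after adjustment over 18251 genes, while DESeq2 gave an adjusted p of 9.99e-05. Leaving out control SC mouse 2, which is not part of that comparison but of the shared estimate of spread, brought the adjusted p of edgeR to 0.0490, while the other 11 fits without 1 mouse gave 0.0526 to 0.396. With all mice kept, the replicate block gave 0.0342, the fit of the 6 CBP-ifKO mice alone 0.0224, and no filter on low counts 1.6e-06. CBP-ifKO counts divided by 2 gave 0.153, and 0.126 when all mice were also thinned to the smallest library. Without control SC mouse 2 the genotype difference of Slco1a4 in SC was −0.23 (adjusted p = 0.0476), while the other 5 fits without 1 mouse gave 0.0978 to 0.286. In control mice EE and SC differed by −0.02 (SE 0.07). Averaged over genotype the housing difference of Slco1a4 was +0.20 (SE 0.05, adjusted p = 0.163 by edgeR and 0.0239 by DESeq2). The estimates by genotype and those by housing come from the same mice, so these values are not independent.

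Ly6c1 encodes a surface protein anchored in the membrane of brain microvessel endothelium. It measured 15.5, 13.1 and 16.4 CPM in control SC, 14.8, 12.9 and 14.8 in CBP-ifKO SC, 17.0, 12.8 and 17.6 in control EE, and 20.8, 16.6 and 14.8 in CBP-ifKO EE. The 4 groups overlapped, and the highest value belonged to CBP-ifKO EE mouse 1, the library high in macrophage genes. The housing difference of Ly6c1 in CBP-ifKO mice was +0.29 (SE 0.14, adjusted p = 0.570). Its genotype difference was −0.08 (SE 0.10) in SC and +0.15 (SE 0.15) in EE, the latter from −0.00 to +0.25 as each mouse was left out. Ly6c1 is the least certain member, because 32.8% of its 1764 distinct stretches of 50 bases also occur in other genes, 21.5% in Ly6c2 and 11.1% in Ly6a, and how reads were divided among them depends on the counting. For Slco1a4 the share was 1.61% and for Pecam1 1.54%, while Cldn5, Cdh5, Kdr, Tek and Esam had 0%. The near copies Ly6c2, Slco1a5 and Slco1a6 had at most 4, 24 and 6 counts in a mouse. Flt4, the related receptor of lymphatic vessels, had group means between 2.98 and 3.49 CPM. No exon of a member overlaps another annotated gene.

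Other genes of the VEGF and angiopoietin system were examined as a list of 12. Averaged over housing, edgeR called 2 of them, Vegfd and Vegfc, both lower (16.7% of the list, beside 16.9% of all genes), and the list's median log2 difference was −0.18. Vegfd, a ligand of Flt4, fell by 0.92 (SE 0.18, adjusted p = 0.0028), from group means of 4.98 and 5.38 CPM in control SC and EE to 2.70 and 2.77 CPM in CBP-ifKO SC and EE, and kept its call in 20 of 20 alternatives. Vegfc, another Flt4 ligand, had a difference of −0.29 (SE 0.10, adjusted p = 0.0473), but its call was lost in 11 of the 12 fits that each left out 1 mouse, all but that without CBP-ifKO EE mouse 2, with an adjusted p of up to 0.111. The most abundant members of the list per kilobase, Vegfb and Nrp2, were not called, at group means of 34.1 to 38.0 CPM for Vegfb and 69.7 to 84.2 CPM for Nrp2. In SC the list's median was −0.19, near that of the 10 members, and Vegfd was the single call of edgeR at 8.33% of the list beside 5.52% of all genes (−0.88, SE 0.19, adjusted p = 0.0202), lost without control SC mouse 3 or CBP-ifKO SC mouse 1 or 2 (adjusted p up to 0.0777).

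Among 24 genes of angiogenic signalling that could be tested, 4 were called averaged over housing (16.7%, beside 16.9% of all genes), each lower in CBP-ifKO, with a list median of −0.11. The median of this list was −0.16 in SC and +0.08 in EE. Pdgfb, the growth factor with which endothelium recruits pericytes, fell by 0.52 (SE 0.07, adjusted p = 0.000107). It was called lower in SC (−0.43, adjusted p = 0.0236) and in EE (−0.61, adjusted p = 0.00464). Cxcl12, a chemokine made by capillary endothelium and by neurons, fell by 0.40 (SE 0.05, adjusted p = 9.87e-05), and was called lower in SC (−0.47, adjusted p = 0.00241) and in EE (−0.31, adjusted p = 0.0378). The averaged calls, Pdgfb in EE and Cxcl12 in SC held in each alternative tried, while Pdgfb in SC and Cxcl12 in EE each held in 2 of 6 fits without 1 mouse (adjusted p up to 0.104 and 0.158). Hey1 (−0.19) and Apln (−0.25) lost theirs in 9 of 12 fits that left out 1 mouse, with adjusted p up to 0.127 and 0.125. Pdgfb and Cxcl12 are also expressed outside vessels, and which cells the difference came from was not tested.

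Endothelial identity genes, a list of 28, had a median of −0.17 in SC, and 3 were called by edgeR (10.7%, beside 5.52% of all genes), each lower, namely Ly6e, Eng and Cd34. Ly6e, at 214 ± 12.9 CPM in control SC, fell by 0.32 (SE 0.06, adjusted p = 0.00816), a call lost without CBP-ifKO SC mouse 3 (adjusted p = 0.0502). Eng, a coreceptor for BMP signals (−0.34), and the sialomucin Cd34 (−0.31) had adjusted p values of 0.0399 and 0.0423. Eng kept its call in 1 of 6 fits without 1 mouse (adjusted p up to 0.145) and Cd34 in 2 of 6 (up to 0.156). Averaged over housing 2 of the 28 were called (7.14%, beside 16.9% of all genes). Cd34 fell by 0.33 (SE 0.07, adjusted p = 0.00444) and Ly6e fell by 0.27 (SE 0.05, adjusted p = 0.000765), both in 20 of 20 alternatives. In EE the list's median was −0.03 and 1 gene was called (3.57%, beside 4.57% of all genes), Itm2a, which rose by 0.34 (SE 0.07, adjusted p = 0.0250), from 66.8 ± 6.20 to 84.3 ± 4.30 CPM, and lost that call without control EE mouse 3 or any 1 of the CBP-ifKO EE mice (adjusted p up to 0.123). Bsg, the highest of the list per kilobase, at group means of 353 to 371 CPM, was not called.

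Of 16 junction and adhesion genes, 3 were called averaged over housing (18.8%, beside 16.9% of all genes) and the list's median was +0.01. Ocln, the tight-junction protein occludin, fell by 0.26 (SE 0.07, adjusted p = 0.0124), whereas Cldn12 (+0.14) and Marveld2 (+0.46) lost their calls in 10 and 8 of the 12 fits without 1 mouse (adjusted p up to 0.101 and 0.0982). Tjp1, the scaffold ZO-1, was not called, at group means of 106 to 119 CPM. Among 22 transport genes 5 were called (22.7%, beside the same 16.9%), 4 of them lower, with a median of −0.07. Tfrc, the transferrin receptor that brings iron into the brain, fell by 0.31 (SE 0.06, adjusted p = 0.00286). Slco1c1, the thyroid hormone transporter that shares its family with Slco1a4, fell by 0.23 (SE 0.06, adjusted p = 0.0122), a call lost when both libraries that stood apart were left out (adjusted p = 0.0733). Slc39a10, a zinc transporter, fell by 0.16 (SE 0.04, adjusted p = 0.0155). Abcg2, the efflux pump, was higher by +0.22 (SE 0.07, adjusted p = 0.0354), a call that held in 5 of 12 fits without 1 mouse (up to 0.0911). In SC 3 of the 22 were called (13.6%, beside 5.52% of all genes), Tfrc, Slco1c1 and Slc39a10, which held in 3, 1 and 1 of 6 fits without 1 mouse (adjusted p up to 0.130, 0.125 and 0.171). Slc3a2 and Lrp1, the highest of the list per kilobase, were not called, at group means of 117 to 126 CPM and 379.7 to 439.8 CPM.

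Wnt signals made by neurons and astrocytes maintain the blood-brain barrier, and their list of 19 genes had 3 calls averaged over housing (15.8%, beside 16.9% of all genes), each lower, with a median of −0.05. Wnt7b fell by 0.46 (SE 0.06, adjusted p = 0.000116) and Wnt7a fell by 0.39 (SE 0.08, adjusted p = 0.00398), both in 20 of 20 alternatives. In SC Wnt7b fell by 0.60 (SE 0.09, adjusted p = 0.00294), with group means of 46.6 ± 6.09 CPM in control and 30.8 ± 0.877 CPM in CBP-ifKO. In EE it fell by 0.31 (SE 0.08, adjusted p = 0.0460), a call held in 1 of 6 fits without 1 mouse (up to 0.150). Wnt7a was also called in SC (−0.46, adjusted p = 0.0229), but in 1 of 6 fits without 1 mouse (up to 0.0942). Lrp5, a coreceptor (−0.26, adjusted p = 0.0407), was called in 2 of 12 fits without 1 mouse (up to 0.0987). The intracellular Ctnnb1 and the coreceptor Tspan12 were not called, at group means of 429 to 439 CPM and 25.4 to 27.8 CPM. Of 19 hypoxia response genes, whose products act up- or downstream of the factor that induces Vegfa, 9 were called averaged over housing (47.4%, beside 16.9%), 7 lower and 2 higher, with a median of −0.11. Among the 7, Epas1, itself an endothelial oxygen-sensing factor, fell by 0.26 (SE 0.05, adjusted p = 0.0011), and Eno1 (−0.22), P4ha1 (−0.24) and the glycolytic Aldoa (−0.20) were lower too. The glycolytic Ldha, at group means of 168 to 202 CPM, was lower as well (−0.20, SE 0.05, adjusted p = 0.00879). The 2 higher genes were the factor Hif1a (+0.16, adjusted p = 0.0206) and its partner Arnt (+0.23, adjusted p = 0.0293), whose calls were not tried in the alternatives. In SC 1 of the 19 was called (5.26%, beside 5.52% of all genes), as Ndrg1 fell by 0.41 (SE 0.05, adjusted p = 0.00143) in 14 of 14 alternatives. In EE 2 of the 19 were called (10.5%, beside 4.57% of all genes), Epas1 (−0.31) and P4ha1 (−0.26), in 3 and 1 of 6 fits without 1 mouse (adjusted p up to 0.131 and 0.140). Many of these genes are expressed in neurons and glia, and the calls do not single out vessels.

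By vessel segment, 7 capillary genes had a median of −0.31 in SC, −0.19 in EE and −0.25 averaged over housing, where 5 of 7 were called (71.4%, beside 16.9% of all genes), each lower. Mfsd2a and Slc16a1, the rest of the list, were not called. Of the 5 called, Cxcl12 is also in the angiogenic list, and Tfrc and Slc7a5 are also in the transport list. Car4, a carbonic anhydrase on capillary endothelium that glia also make, measured 44.3 ± 3.67 and 44.0 ± 2.88 CPM in control SC and EE, and 27.6 ± 1.52 and 30.4 ± 3.34 CPM in CBP-ifKO SC and EE. It fell by 0.68 in SC (SE 0.08, adjusted p = 0.000525) and by 0.52 in EE (SE 0.09, adjusted p = 0.00755), calls that held in each alternative. Rgcc (−0.25, adjusted p = 0.0383) was called in 4 of 12 fits without 1 mouse (up to 0.102). Summed over the 7 genes, the capillary level was 428, 424 and 416 CPM in control SC and 332, 349 and 347 CPM in CBP-ifKO SC, and 449, 464 and 435.0 CPM in control EE and 360.3, 387 and 368 CPM in CBP-ifKO EE. The genotypes did not overlap in either housing, and Tfrc, also made by neurons, made the largest part of the sum by mean CPM. Astrocyte, microglia and interneuron sums were also lower in CBP-ifKO without overlap in both housings. In EE their highest CBP-ifKO values were 4718, 317 and 893 CPM, and their lowest control values 5118, 321 and 920 CPM. Excitatory neuron and oligodendrocyte lineage sums overlapped. The artery list of 9 genes had a median of −0.35 in SC and −0.05 in EE, and the vein list, with 6 genes tested, −0.19 and +0.10. Averaged over housing, with 16.9% of all genes called, Hey1 and Vegfc were called of the 9 arterial genes (22.2%) and Ackr1, at −0.19 (SE 0.05, adjusted p = 0.00926), of the 6 venous genes (16.7%). The arterial calls are those already given in the angiogenic and VEGF lists, and both were lost in most fits without 1 mouse. In SC 1 of the 6 venous genes was called (16.7%, beside 5.52% of all genes), as Vcam1 fell by 0.39 (SE 0.07, adjusted p = 0.0103), a call lost without control SC mouse 3 and without CBP-ifKO SC mouse 1 or 2 (adjusted p up to 0.0634). Mgp and Nr2f2, abundant in these lists, were not called.

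Mural cells, the pericytes and smooth muscle cells that wrap the endothelium, were followed by 14 genes. Their sum was 361, 355 and 412 CPM in control SC, 305, 284 and 314 CPM in CBP-ifKO SC, 343, 305 and 344 CPM in control EE, and 406, 326 and 353 CPM in CBP-ifKO EE. As for the endothelial sum, the CBP-ifKO mice were the 3 lowest in SC and overlapped with controls in EE. The list's median was −0.20 in SC, +0.04 in EE and +0.26 for the interaction, and its part in the endothelial differences was not tested. In SC 1 of the 14 was called (7.14%, beside 5.52% of all genes), as Rgs5, a pericyte regulator of G-protein signals, fell by 0.35 (SE 0.07, adjusted p = 0.0142), and lost that call without control SC mouse 3 or CBP-ifKO SC mouse 2 or 3 (adjusted p up to 0.0747). Averaged over housing 2 of the 14 were called (14.3%, beside 16.9% of all genes). Rgs5 fell by 0.20 (SE 0.05, adjusted p = 0.00953) and Cspg4 fell by 0.33 (SE 0.08, adjusted p = 0.00869), both in 20 of 20 alternatives. In EE 1 of the 14 was called (7.14%, beside 4.57%), as Myh11, the smooth muscle myosin, was higher in CBP-ifKO by +0.94 (SE 0.21, adjusted p = 0.0302), a call lost without CBP-ifKO EE mouse 1, the library high in macrophage genes, without CBP-ifKO EE mouse 3, or without control EE mouse 2 or 3 (adjusted p up to 0.1005). Vtn, with group means of 63.8 to 75.5 CPM, was not called.

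**Figure D3:**
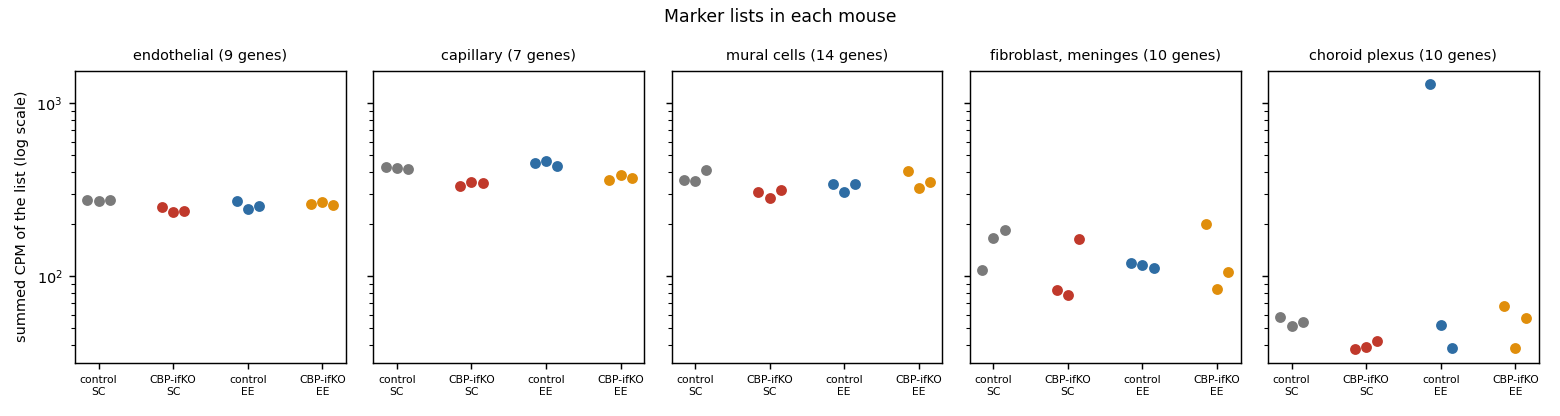
Summed CPM (vertical axis, log scale) of marker lists for endothelium, capillaries, mural cells, fibroblasts and meninges, and choroid plexus, with a point for each of 12 mice in the 4 groups. Control EE mouse 1 reaches 1294 CPM for choroid plexus, and the capillary sum of the CBP-ifKO mice, 332 to 387 CPM, lies below that of the controls, 416 to 464 CPM. Astrocyte, microglia and interneuron sums, not drawn, were also lower in CBP-ifKO without overlap in each housing.

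The 10 genes did not move as a block from mouse to mouse. After the mean of each group was taken away from log2 CPM, the 45 pairs of members had a median Pearson r of 0.164 over 12 mice, 9 pairs were above 0.5 and 12 below 0. The highest was 0.749 for Pecam1 with Esam (Spearman rho 0.860), and the lowest was −0.765 for Cdh5 with Slco1a4 (rho −0.783). Cldn5 and Cdh5 had r = 0.710. These values are a description of 12 mice that share group means and library scaling, and carry no test. Outside the members, 11836 genes with a mean of at least 5 CPM were compared with Cldn5 and with Vegfa. Those most like Cldn5 were Rbfox3 (r = 0.975, rho 0.986), Hcn2 (0.972, 0.965), Pink1 (0.967, 0.965), Fscn1 (0.957, 0.916) and Gm17018 (0.957, 0.958), of which Rbfox3 is a nuclear marker of neurons rather than of vessels. Leaving out the 2 mice farthest from the median of Cldn5 left r at 0.947 for Rbfox3, 0.951 for Hcn2, 0.925 for Pink1, 0.898 for Fscn1 and 0.936 for Gm17018. Those most like Vegfa were Tfeb (r = 0.894, rho 0.937), Acaa2 (0.877, 0.706), Mad2l2 (0.875, 0.776), Srebf1 (0.874, 0.699) and Slc7a10 (0.869, 0.713). Without control EE mice 1 and 2, the farthest for Vegfa, r was 0.792 for Tfeb, 0.688 for Acaa2, 0.733 for Mad2l2, 0.685 for Srebf1 and 0.638 for Slc7a10. Cldn5 is a gene of 1 exon with 60.5% G and C in its transcript, and Slco1a4 a gene of 17 exons with 40.3%, so the members also differ in base composition.

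Upstream sequence was looked at for Kdr and Vegfa, the members called by edgeR, and for Slco1a4, the member with the smallest unadjusted p for the interaction. Endothelial promoters are known to carry sites of ETS factors, whose core is GGAA on either strand, and the 250 bases listed upstream of each gene in RefSeq were searched for GGAA or TTCC, for TGACG or CGTCA, a core site of CREB, a partner of CBP, and for ACGTG or CACGT, the core of the hypoxia response element. Promoters of 7 of the 10 members were matched in RefSeq (GRCm38.p6), those of Cldn5, Flt1, Kdr, Tek, Vegfa, Slco1a4 and Ly6c1. GGAA was present in 6 of the 7, all but Cldn5, TGACG in 1, Flt1, and ACGTG in 0. Of 32851 promoters in the table, 93.4% held GGAA, 17.8% TGACG and 16.6% ACGTG, so the presence of GGAA does not set the members apart, and a match is a run of letters and not a shown binding site. RefSeq and Ensembl place the starts differently, so that the Kdr window ends 3 bases inside the Ensembl gene, and the Vegfa and Slco1a4 windows end 8 and 21 bases before theirs. The windows are given 5′ to 3′ on the strand of the gene, with GGAA and TTCC in capitals. All 3 lie on the minus strand, Kdr at chr5:75978456-75978705 with 4 matches, Vegfa at chr17:46032378-46032627 with 6 and Slco1a4 at chr6:141856221-141856470 with 4.
Kdr: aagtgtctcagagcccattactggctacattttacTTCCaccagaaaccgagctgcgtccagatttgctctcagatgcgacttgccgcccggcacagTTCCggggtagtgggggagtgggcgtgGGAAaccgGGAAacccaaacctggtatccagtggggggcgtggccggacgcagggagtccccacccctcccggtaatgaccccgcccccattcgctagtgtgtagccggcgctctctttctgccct
Vegfa: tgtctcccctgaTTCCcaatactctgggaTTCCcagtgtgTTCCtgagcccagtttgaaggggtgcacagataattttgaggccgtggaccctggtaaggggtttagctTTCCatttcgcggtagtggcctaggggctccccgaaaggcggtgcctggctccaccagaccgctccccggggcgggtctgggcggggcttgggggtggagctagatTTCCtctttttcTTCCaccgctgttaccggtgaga
Slco1a4: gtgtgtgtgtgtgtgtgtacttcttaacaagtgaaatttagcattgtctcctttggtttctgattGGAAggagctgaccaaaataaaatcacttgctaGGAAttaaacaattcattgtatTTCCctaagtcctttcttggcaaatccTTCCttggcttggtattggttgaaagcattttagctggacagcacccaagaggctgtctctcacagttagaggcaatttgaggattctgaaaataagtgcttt
The gene bodies, in GRCm38, are 75932827 to 75978458 on chromosome 5 for Kdr (29 exons), 46016993 to 46032369 on chromosome 17 for Vegfa (8 exons) and 141805440 to 141856199 on chromosome 6 for Slco1a4 (17 exons). The remaining members lie on chromosome 16 (Cldn5), chromosome 11 (Pecam1), chromosome 8 (Cdh5), chromosome 5 (Flt1), chromosome 4 (Tek), chromosome 15 (Ly6c1) and chromosome 9 (Esam).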

How the data were processed

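By the authors' account reads were checked with FastQC 0.11.8, trimmed with Trim Galore 0.6.4, aligned to GRCm38 with STAR 2.6.1, kept at a mapping quality above 10, counted per gene with Rsubread, and tested by the authors with DESeq2 1.30.1. The strand setting is not given in the sources used here. The deposited values are whole-number counts per gene for each mouse, 2 runs merged, not normalized. Here, in R 4.3.3, edgeR 4.0.16 was fitted to these counts (filterByExpr, TMM, quasi-likelihood F test, Benjamini-Hochberg adjustment over all genes tested, called under 0.05 with no fold threshold). Genotype was tested in the 6 mice of each housing, and the other contrasts in all 12. DESeq2 1.42.0, other filters and scalings, CBP-ifKO counts divided by 2, a replicate block and leaving out each mouse were alternatives. CPM per kilobase uses the deposited gene lengths. Where a symbol had 2 identifiers, as for Aldoa, that with the most counts was used. The genes named are the 10 members, Crebbp and Esr1, near copies and Flt4, the 5 genes most like Cldn5 and Vegfa, and in each list the 2 highest per kilobase and up to 4 called in each comparison, by smallest p. Hif1a, Arnt, Slc7a5, Mfsd2a and Slc16a1 were added after seeing the data, to complete counts. Igf2 was named as well, because it was at 0 in CBP-ifKO SC mouse 1. Members and lists were chosen with earlier results of these data known.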

Additional observations from a re-analysis of the deposited data

Results flagged for a closer look

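Slco1a4 had opposite genotype differences in the housing conditions. In SC the 3 CBP-ifKO mice, at 52.3 to 59.9 CPM, lay below the 3 controls, at 63.7 to 67.4 CPM, and in EE the 3 CBP-ifKO mice, at 72.4 to 81.0 CPM, lay above the 3 controls, at 58.6 to 67.2 CPM. The difference between these differences, tested as an interaction by edgeR, was 0.44 on the log2 scale (SE 0.10), with an unadjusted p of 0.000397 and an adjusted p of 0.9998 over 18251 genes, so it failed the correction. It ranged from 0.38 to 0.49 over 20 alternatives and passed an adjusted p of 0.05 in 1 of them, the fit with no filter on low counts.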

How the results depend on the processing

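The direction of Kdr in SC was kept in 14 of 14 alternatives (log2 difference −0.47 to −0.36), and its call in 10. Vegfa averaged over housing kept its direction in 20 of 20 (−0.21 to −0.11) and its call in 8. Slco1a4 in EE against SC in CBP-ifKO mice ranged from 0.37 to 0.47, and was called in 5 of 21. For the genes named, 2760 of 3101 alternatives left the result on its side of the threshold, 317 lost a call, 20 gained 1, 4 that were not called changed sign by at least 1 SE, and 0 turned a call round. Where counts moved, the cause was not tested. With DESeq2 the members called were 3 for genotype in SC, 1 in EE, 1 for EE against SC in CBP-ifKO mice and 1 for housing averaged over genotype, and the genes called were 1296 for genotype in EE, 15 and 54 for EE against SC in control and CBP-ifKO mice, and 158 for housing averaged. With no filter on low counts the members called were 4, 1, 1 and 1 in those comparisons and 1 for the interaction, and the genes called were 1512 for genotype in SC, 1677 in EE, 145 and 247 for EE against SC in control and CBP-ifKO mice, 110 for the interaction and 334 for housing averaged. A minimum of 1 CPM in 3 mice left 1 member, Kdr, called for genotype averaged over housing, as did CBP-ifKO counts divided by 2 with all mice thinned to the smallest library of 14291105 counts. Halving the CBP-ifKO counts, with or without thinning, gave 0 genes for EE against SC in CBP-ifKO mice. Fitted within all 12 mice, genotype in EE gave 1293 genes. Fits of the 6 mice of a genotype gave 1 gene for EE against SC in control mice, and 21 genes and 1 member in CBP-ifKO mice. Leaving out control EE mouse 1 and CBP-ifKO EE mouse 1 together, an alternative chosen after seeing the data, gave 1 gene for EE against SC in control mice, 0 in CBP-ifKO mice, and 1 member for genotype averaged. The paper describes no pairing of mice by replicate number. In the data 5 of 18 pairs with a shared number had r above 0.1 (range −0.0675 to 0.305). Of 12 mice, 8 were closest to a mouse of their own number, a hint of pairing that was not tested. With the replicate block 2 members (Kdr and Cldn5) were called for genotype in SC, and 1 member and 17 genes for EE against SC in CBP-ifKO mice, 48 genes for housing averaged, 1041 and 1089 genes for genotype in SC and EE, and 3374 averaged. Leaving out each mouse in turn gave 0 to 3 members and 399 to 1908 genes for genotype in SC, 0 members and 285 to 1016 genes in EE, 0 members and 0 to 5 genes for EE against SC in control, 0 to 1 member and 0 to 10 genes in CBP-ifKO mice, 0 members and 0 genes for the interaction, 1 to 3 members and 2459 to 3294 genes for genotype averaged, and 0 members and 7 to 42 genes for housing averaged. The SC extreme of 3 members (Kdr, Cldn5 and Slco1a4) came without control SC mouse 2.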

Other observations

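Other cell types of the same tissue, followed by marker lists, give the setting of the vessel genes. Averaged over housing, 16.9% of all genes tested were called by edgeR. Beside that share, 5 of 9 astrocyte genes were called (55.6%), each lower in CBP-ifKO mice, among them Sox9, which fell by 0.27 (SE 0.06, adjusted p = 0.00389 by edgeR), and Slc1a3, which fell by 0.21 (SE 0.06, adjusted p = 0.0173). For housing averaged over genotype, where 0.164% of all genes were called, Sox9 was the single call of 9 astrocyte genes (11.1%), lower in EE by −0.40 (SE 0.06, adjusted p = 0.0103), and held in 20 of 20 alternatives. Npy was the single call of 7 interneuron genes for housing (14.3%), higher in EE by +0.43 (SE 0.07, adjusted p = 0.0190), in 8 of 12 fits without 1 mouse (up to 0.0888). Of 8 oligodendrocyte lineage genes 2 were called averaged over housing (25%), Olig2 and Pdgfra, which fell, by −0.37 and −0.26. Of 8 excitatory neuron genes 3 were called lower (37.5%), Nrgn by −0.52, Wfs1 by −0.86 and Neurod6 by −0.17. Of 7 interneuron genes 2 were called (28.6%), as Sst was lower (−0.33) and Vip higher (+0.21), the latter called in 5 of 12 fits without 1 mouse (adjusted p up to 0.0992). Of 8 microglia genes 2 were called (25%), as Cx3cr1 (−0.17) and Csf1r (−0.12) were lower, and were called in 11 and 3 of 12 fits without 1 mouse (adjusted p up to 0.0510 and 0.0913).

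In SC the choroid plexus gene Ttr measured 26.1, 21.5 and 20.7 CPM in control and 7.17, 6.02 and 7.73 CPM in CBP-ifKO mice, and fell by 1.70 (SE 0.12, adjusted p = 2.2e-05 by edgeR). It was the 1 gene called of 7 choroid plexus genes tested in SC (14.3%, beside 5.52% of all genes), where 1 gene was higher and 2 were lower at an unadjusted p under 0.05. In EE it measured 1129, 19.6 and 8.81 CPM in control and 32.3, 4.06 and 22.8 CPM in CBP-ifKO mice, and the groups overlapped. Of 10 fibroblast and meninges genes 2 were called in EE (20%, beside 4.57% of all genes), as Aldh1a2 and Col1a1 were higher in CBP-ifKO EE by +1.13 and +0.72, and both lost their calls without CBP-ifKO EE mouse 1 or 3 and without control EE mouse 2 or 3, Aldh1a2 also without control EE mouse 1 (adjusted p up to 0.115 and 0.124). The 5 blood genes, led by Hbb-bs, summed to between 28.1 and 98.99 CPM in the 12 mice with no separation of groups.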
